A study of Mus musculus with 18 samples.

Results

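Chemokines and cytokines are the secreted and membrane-bound signals by which neurons, glia and blood cells call and instruct immune cells. Here they are represented by 10 listed genes, taken by symbol and all found among the 24015 gene rows of each table. They comprise the CC chemokines Ccl2, Ccl3 and Ccl4, the CXC chemokines Cxcl10 and Cxcl12, the CX3C chemokine Cx3cl1, and the cytokines Csf1, Il1b, Il33 and Tnf. RNA came from microdissected dentate gyrus, the hippocampal field of granule neurons, of adult C57BL/6 mice aged 8 weeks, with each library made from its own animal per the labels. The 18 libraries form 6 groups of 3. The groups shRNA-cFos_E1 and shRNA-cFos_E0 carried a short hairpin RNA named for c-Fos, and shRNA-Ctrl_E1 and shRNA-Ctrl_E0 a control hairpin. E1 is set against the E0 state, which the tables call sham, in a study of neuronal activation. The groups cFos_OE and EYFP_OE overexpressed c-Fos, a subunit of the transcription factor AP-1, or a yellow fluorescent protein. The sources used here do not give the vector, the cells that took it up or the stimulus.

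As background, chemokines act on G-protein coupled receptors and set up gradients that cells follow. Inflammatory chemokines such as Ccl2 and Cxcl10 are switched on by NF-kB and interferon signalling, whereas Cxcl12 and Cx3cl1 are made continuously in the healthy hippocampus. Cx3cl1 is made mostly by neurons and read by Cx3cr1 on microglia. Csf1 keeps microglia alive through Csf1r, while Il1b, Il33 and Tnf are cytokines of injury and infection.

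The values are the authors' 3 tables of comparisons, in which each gene has a mean normalized count over the libraries, a log2 fold change, its standard error (SE) and a p-value adjusted over all genes tested. Values per library were not at hand, so no animal can be shown or left out and library depth is unknown. Fos, the targeted gene, had a log2 fold change at E1 of 2.33 ± 0.15 with shRNA-cFos and 3.36 ± 0.14 with shRNA-Ctrl in the authors' deposited tables. In cFos_OE over EYFP_OE it was 3.34 ± 0.20, from the authors' deposited table. The 2 hairpin responses of Fos differed, shRNA-cFos minus shRNA-Ctrl, by -1.03 ± 0.20 (adjusted p = 1.1e-05), by calculation from the authors' deposited tables. A level of Fos at E0 cannot be compared between the hairpins, because the tables were normalized separately. All 12 markers of dentate granule neurons, the cells that define the tissue, were tested in each of the authors' deposited tables, and none was at 0. Markers of oligodendrocytes (10), astrocytes (10), endothelium (10) and microglia (16) were measured too, so the tissue is a mixture. In such a mixture fewer cells of a type and less RNA per cell cannot be told apart.

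The promoters of the 3 genes whose response to activation differed between the hairpins are shown first, as the 250 bases before each gene's start in RefSeq (build GRCm38.p6, later than the mm9 build of the files). Capitals mark matches on either strand to the AP-1 motif TGANTCA, the cyclic-AMP element TGACGTCA, the interferon-stimulated core (GAAA, any 2 bases, GAAA) and the NF-kB consensus.
Cxcl10 (chr5:92348890-92349139, minus strand): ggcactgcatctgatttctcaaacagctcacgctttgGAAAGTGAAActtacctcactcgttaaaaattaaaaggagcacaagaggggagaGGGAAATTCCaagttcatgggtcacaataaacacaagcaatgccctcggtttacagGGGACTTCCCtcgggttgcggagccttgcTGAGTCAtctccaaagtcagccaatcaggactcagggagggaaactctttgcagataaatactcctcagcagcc
Csf1 (chr3:107760470-107760719, minus strand): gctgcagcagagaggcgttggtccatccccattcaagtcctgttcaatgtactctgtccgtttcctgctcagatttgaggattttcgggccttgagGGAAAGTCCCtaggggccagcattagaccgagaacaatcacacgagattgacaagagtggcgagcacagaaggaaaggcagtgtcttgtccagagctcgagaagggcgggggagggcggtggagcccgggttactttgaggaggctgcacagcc
Cx3cl1 (chr8:94771930-94772179, plus strand): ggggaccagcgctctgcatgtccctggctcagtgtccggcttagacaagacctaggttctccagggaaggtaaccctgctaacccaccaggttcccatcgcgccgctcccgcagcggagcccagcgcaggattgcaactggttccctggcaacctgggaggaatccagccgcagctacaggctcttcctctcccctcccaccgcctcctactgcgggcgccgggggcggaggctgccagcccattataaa
In the Cxcl10 window the capitals are, from left to right, 1 interferon-stimulated core, 2 NF-kB matches and 1 AP-1 match, which reads as the motif on both strands. The Csf1 window has 1 NF-kB match, on the minus strand of the gene, and the Cx3cl1 window has 0 matches. Over all 32851 promoter windows of this length, 6.75% hold the AP-1 motif, 1.55% the cyclic-AMP element, 2.98% the interferon-stimulated core and 3.90% the NF-kB consensus. RefSeq windows were found for 8 of the 10 genes, with a pair of windows for Il33 and without Ccl2 and Ccl4. Of these 8 genes, 1 held the AP-1 motif, 1 the interferon-stimulated core, 2 the NF-kB consensus and 0 the cyclic-AMP element. A match describes the letters only and shows no binding.

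Read support decides which of the 10 genes can be judged at all. Mean normalized counts of Cx3cl1 were 7456, 10639 and 8984 in the authors' deposited tables for shRNA-cFos, shRNA-Ctrl and overexpression. Cxcl12 had 757, 1173 and 1007, and Csf1 had 370, 598 and 663, in the same authors' deposited tables. Il33 had means of 476, 580 and 488 there, again from the authors' deposited tables. Cxcl10 had 338 and 327 in the authors' deposited tables of the hairpins. With overexpression its mean was 68.3 in the authors' deposited table, but without an adjusted p it was not judged there. These 5 genes had a mean of at least 20 in every table, the minimum set here for a judgement. Ccl2, the monocyte attractant, passed it with means of 41.4 and 46.9 in the authors' deposited hairpin tables and missed it with 6.91 in that of overexpression.

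Ccl3, Ccl4, Il1b and Tnf were too low to judge in all 3 comparisons. Means of Ccl3 were 10.2, 8.89 and 3.51 in the authors' deposited tables, and those of Ccl4 were 10.1, 7.84 and 2.90. Il1b stood at 9.25, 8.27 and 4.46 and Tnf at 3.86, 3.68 and 3.22 in the authors' deposited tables. The authors' own minimum for an adjusted p lay at a mean of 12.2 for shRNA-cFos, 5.40 for shRNA-Ctrl and 3.64 for overexpression, from the authors' deposited tables. Tnf therefore had no adjusted p in any table, and Ccl3, Ccl4 and Il1b had none with shRNA-cFos.

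**Figure D1:**
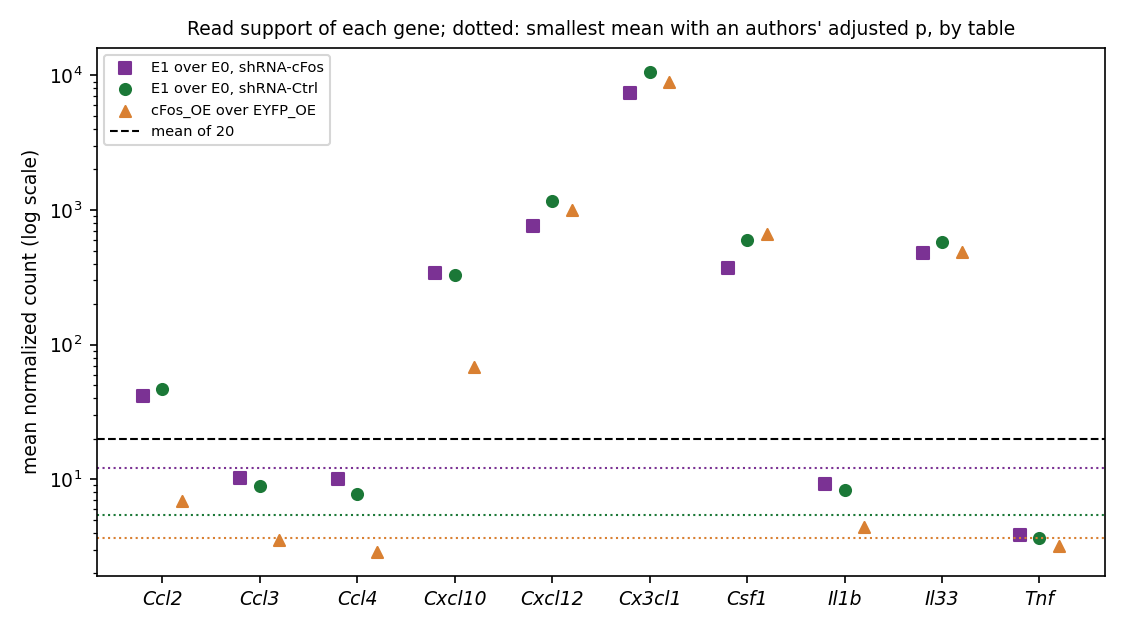
Mean normalized count (log scale) of each gene in the 3 comparisons, with the minimum of 20 used for a judgement as a dashed line and the authors' smallest mean with an adjusted p as dotted lines in the colour of each table. Ccl3, Ccl4, Il1b and Tnf lie under 20 in every table, and Ccl2 only in that of overexpression.

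With the hairpin named for c-Fos, 2 of the 6 genes with an adjusted p changed at E1, Cx3cl1 upward and Csf1 downward. Across all genes of the authors' deposited table for shRNA-cFos, 28.1% passed the same threshold of 0.05, 16.3% higher and 11.7% lower, so this share is near the background. Group levels below were estimated from the mean count and the fold change with its shrinkage removed, and carry no error. Cx3cl1, the neuronal fractalkine, was estimated at 9284 normalized counts in shRNA-cFos_E1 and 5627 in shRNA-cFos_E0, from the authors' deposited table. Its log2 fold change was 0.70 ± 0.08 (adjusted p = 1.6e-15), or 1.63-fold, in the authors' deposited table, above 97.5% of tested genes. Ranks here and below are of the shrunken fold changes, in which less precise genes are pulled closer to no change. Csf1, the growth factor of microglia, was estimated at 247 in shRNA-cFos_E1 and 492 in shRNA-cFos_E0, from the authors' deposited table. It fell by 0.94 ± 0.12 on the log2 scale (adjusted p = 3.8e-13) in the authors' deposited table, a value below all but 0.368% of tested genes.

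The other 4 tested genes did not pass with shRNA-cFos. Cxcl12, which guides migrating granule neuron precursors, was estimated at 694 in shRNA-cFos_E1 and 819 in shRNA-cFos_E0, with a log2 fold change of -0.23 ± 0.10 (adjusted p = 0.085) in the authors' deposited table. Cxcl10, the interferon-induced attractant of activated T cells, was estimated at 238 in shRNA-cFos_E1 and 438 in shRNA-cFos_E0, with -0.46 ± 0.26 (adjusted p = 0.18) in the authors' deposited table. Il33, a nuclear alarmin of glia, was estimated at 465 in shRNA-cFos_E1 and 486 in shRNA-cFos_E0, with -0.06 ± 0.10 (adjusted p = 0.71) in the authors' deposited table. Ccl2 stood at -0.46 ± 0.25 (adjusted p = 0.16) there, in the authors' deposited table. The 4 genes too low to judge had values of -0.66 for Ccl3, -0.43 for Ccl4, -0.37 for Il1b and -0.28 for Tnf in the authors' deposited table.

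With the control hairpin, 4 of the 9 genes with an adjusted p changed at E1, with Cxcl10 and Il33 higher and Cxcl12 and Csf1 lower. In all, 33.0% of the genes tested with shRNA-Ctrl passed, 16.8% higher and 16.2% lower, from the authors' deposited table. Cxcl10 was estimated at 528 normalized counts in shRNA-Ctrl_E1 and 126 in shRNA-Ctrl_E0, from the authors' deposited table. Its log2 fold change was 1.09 ± 0.29 (adjusted p = 0.0012) in the authors' deposited table, and 2.06 or 2.31 with the shrinkage removed, depending on the solution taken. Il33 rose by 0.26 ± 0.09 on the log2 scale (adjusted p = 0.011) in the authors' deposited table, with 634 in shRNA-Ctrl_E1 and 527 in shRNA-Ctrl_E0. Cxcl12 was estimated at 986 in shRNA-Ctrl_E1 and 1361 in shRNA-Ctrl_E0, from the authors' deposited table. It fell by 0.45 ± 0.09 (adjusted p = 4.4e-06) in the authors' deposited table. Csf1 was estimated at 519 in shRNA-Ctrl_E1 and 676 in shRNA-Ctrl_E0 and fell by 0.37 ± 0.10 (adjusted p = 0.0015) in the authors' deposited table.

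Cx3cl1 did not pass with shRNA-Ctrl, at 0.18 ± 0.09 (adjusted p = 0.082) in the authors' deposited table, with estimated levels of 11330.2 in shRNA-Ctrl_E1 and 9949 in shRNA-Ctrl_E0. Ccl2 had 0.42 ± 0.29 (adjusted p = 0.26) in the authors' deposited table. Among the genes too low to judge, Il1b had 0.68 ± 0.29 (adjusted p = 0.056), Ccl4 had 0.48 ± 0.29 and Ccl3 had 0.27 ± 0.29 in the authors' deposited table. Tnf, without an adjusted p, stood at 0.41 ± 0.26 in the authors' deposited table.

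Overexpression of c-Fos against EYFP gave 1 change in a gene with enough reads, a lower Cxcl12. At the threshold of 0.05, 3 of the 6 genes with an adjusted p passed, 2 higher and 1 lower, beside 13% of all genes tested, 7.1% higher and 5.86% lower, from the authors' deposited table. Cxcl12 was estimated at 753 in cFos_OE and 1260.1 in EYFP_OE, from the authors' deposited table. It fell by 0.68 ± 0.11 (adjusted p = 4.2e-08), 1.61-fold lower, in the authors' deposited table, and only 0.455% of tested genes had a lower value. The other genes past the threshold were Il1b (0.46 ± 0.15, adjusted p = 0.016) and Ccl2 (0.43 ± 0.16, adjusted p = 0.045) in the authors' deposited table, whose means of 4.46 and 6.91 are too low to judge. When p-values were adjusted over every gene with a p, with no filter on low means, Ccl2 had an adjusted p of 0.054, computed from the authors' deposited table.

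Csf1 narrowly missed the threshold with overexpression, at 0.26 ± 0.10 (adjusted p = 0.051) in the authors' deposited table, with 728 in cFos_OE and 599 in EYFP_OE. Cx3cl1 had -0.10 ± 0.06 (adjusted p = 0.38) and Il33 had 0.21 ± 0.15 (adjusted p = 0.46) in the authors' deposited table. Cxcl10 is listed with 0.45 ± 0.16 and no p in the authors' deposited table, as DESeq2 does when a library's count lies far from the others. Ccl3 (0.06), Ccl4 (0.06) and Tnf (0.19) had no adjusted p in the authors' deposited table.

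**Figure D2:**
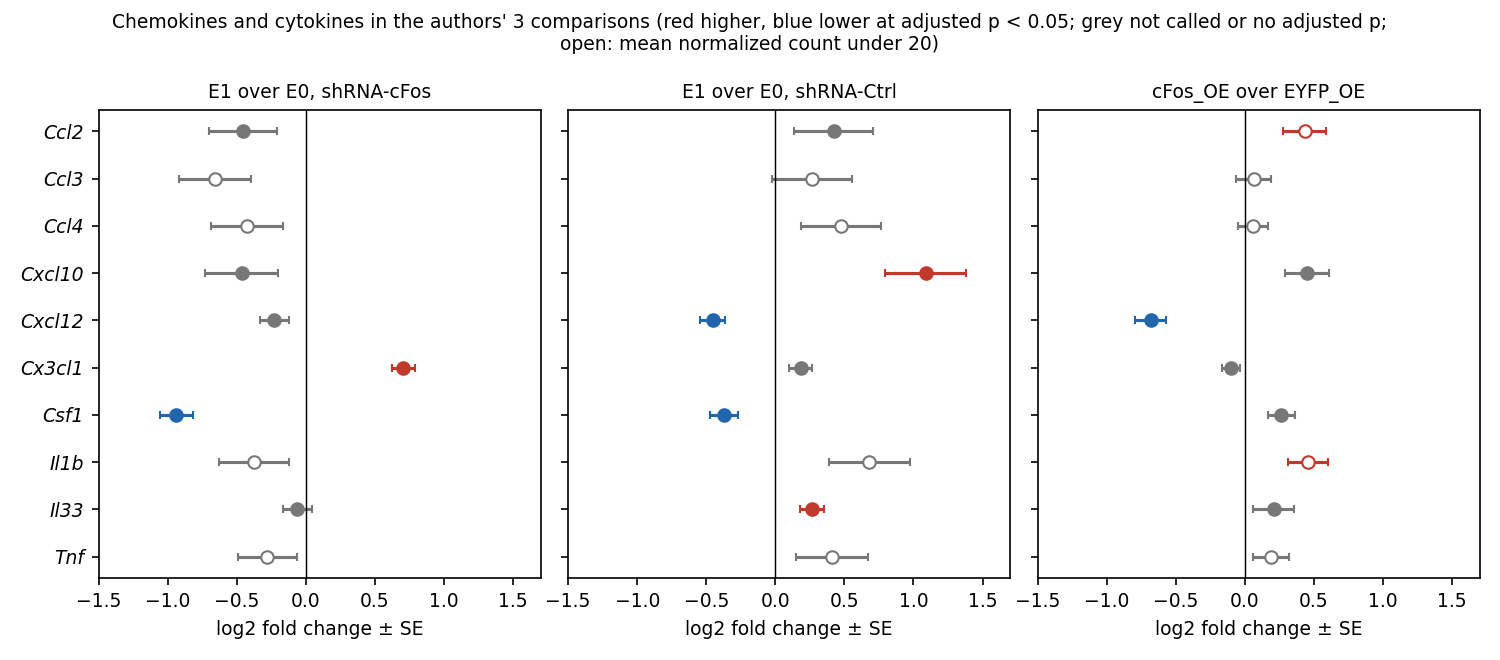
Log2 fold change ± SE of each gene in the authors' 3 comparisons, with red for higher and blue for lower at an adjusted p under 0.05, grey for genes not called or without an adjusted p, and open symbols for a mean normalized count under 20. Cx3cl1 is higher and Csf1 lower with shRNA-cFos, Cxcl10 is at 1.09 with shRNA-Ctrl, and Cxcl12 is lower with shRNA-Ctrl and with overexpression.

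**Figure D3:**
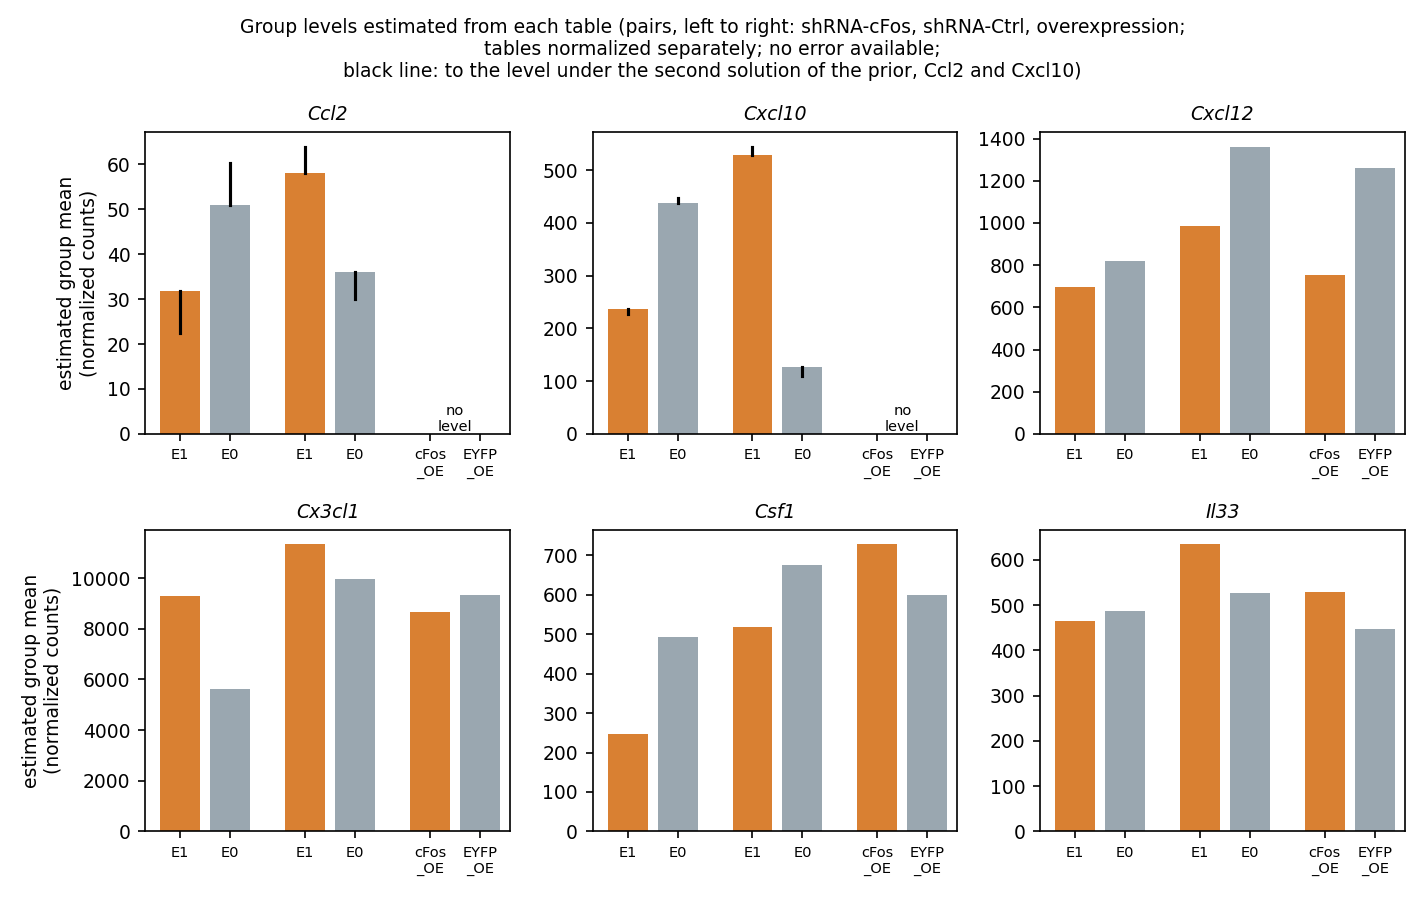
Group means in normalized counts, estimated from each table's mean count and fold change with the shrinkage removed, for the 6 genes whose mean reaches 20 in both hairpin tables, with orange for E1 or cFos_OE and grey for E0 or EYFP_OE. The tables were normalized separately, so bars compare only within a pair, and a black line leads to the level under the other solution for Ccl2 and Cxcl10.

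The size of the response to activation was then compared between the hairpins, as the difference of both log2 fold changes, shRNA-cFos minus shRNA-Ctrl. These tables share no libraries. Of the 6 genes tested in both, 3 differed, 1 higher and 2 lower, where 23.8% of 14386 genes did, 12.9% higher and 11.0% lower, by calculation from the authors' deposited tables. Cxcl10 had the lower response with shRNA-cFos, by -1.55 ± 0.39 (adjusted p = 9.5e-04), by calculation from the authors' deposited tables. With the shrinkage removed from both responses, this difference of Cxcl10 was -2.94, by calculation from the authors' deposited tables. Csf1 fell further with shRNA-cFos, by -0.57 ± 0.16 (adjusted p = 0.0028), by calculation from the authors' deposited tables. The response of Cx3cl1 was higher with shRNA-cFos, by 0.52 ± 0.12 (adjusted p = 1.9e-04), by calculation from the authors' deposited tables.

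The difference of Cxcl12 was 0.23 ± 0.14 (adjusted p = 0.24, 95% interval -0.04 to 0.49), by calculation from the authors' deposited tables. That of Il33 was -0.32 ± 0.14 (adjusted p = 0.066), and that of Ccl2 -0.88 ± 0.38 (adjusted p = 0.072), both by calculation from the authors' deposited tables. A fall of Cxcl12 that passed with shRNA-Ctrl and not with shRNA-cFos is thus not shown to differ, and the same holds for Il33. Values of Ccl3 (-0.92), Ccl4 (-0.90), Il1b (-1.06) and Tnf (-0.69), by calculation from the authors' deposited tables, rest on counts too low for an adjusted p in at least 1 table.

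**Figure D4:**
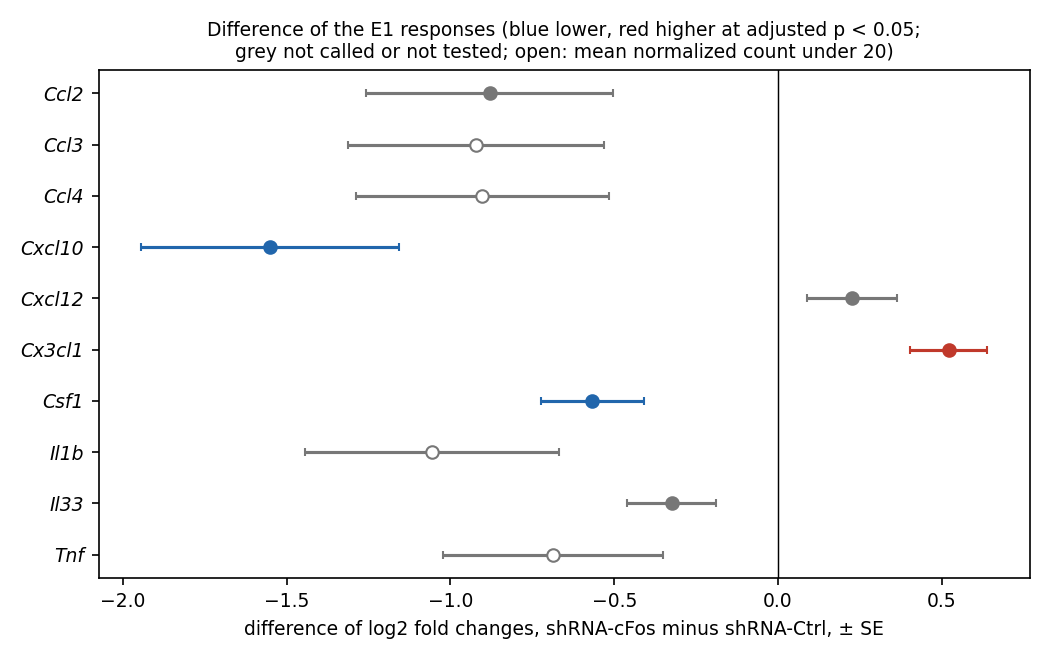
Difference of the E1 responses, shRNA-cFos minus shRNA-Ctrl, in log2 units ± SE for each gene, with blue for a lower and red for a higher response at an adjusted p under 0.05, grey for genes not called or not tested and open symbols for a mean normalized count under 20. Cxcl10 (-1.55) and Csf1 (-0.57) lie left of 0 and Cx3cl1 (0.52) right of it.

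Markers of microglia, a main source of Ccl3, Ccl4, Il1b and Tnf in brain, also changed, though not all of them in any comparison. Csf1 with shRNA-cFos and Cxcl10 and Il33 with shRNA-Ctrl changed in the direction of most called markers, whereas Cx3cl1 with shRNA-cFos, Csf1 with shRNA-Ctrl, and Cxcl12 with shRNA-Ctrl and overexpression changed in the opposite one. Of all tested genes, 28.1% were called with shRNA-cFos, 33.0% with shRNA-Ctrl and 13% with overexpression, from the authors' deposited tables. Between the hairpins 23.8% differed, by calculation from the authors' deposited tables. These shares apply to every marker list below. With shRNA-cFos 1 of 16 microglial markers rose and 9 fell per the authors' deposited table (median -0.38). Their summed estimated level was 8068 in shRNA-cFos_E1 and 10651 in shRNA-cFos_E0. With shRNA-Ctrl 9 rose and 0 fell per the authors' deposited table (median 0.34), with sums of 14328 in shRNA-Ctrl_E1 and 10784 in shRNA-Ctrl_E0. With overexpression 9 rose and 0 fell per the authors' deposited table (median 0.44), with sums of 11839 in cFos_OE and 8573 in EYFP_OE. The 16 responses were lower with shRNA-cFos for 10 and higher for 0, by calculation from the authors' deposited tables. No marker was at 0, the spread of the sums over animals is unknown, and the part of these cells in the results was not tested.

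Most called granule neuron markers moved opposite to most called microglial markers in each comparison. With shRNA-cFos 7 of 12 rose and 0 fell per the authors' deposited table (median 0.24), with sums of 18679.8 in shRNA-cFos_E1 and 14409 in shRNA-cFos_E0. With shRNA-Ctrl 1 rose and 9 fell per the authors' deposited table (median -0.49), with sums of 24051 in shRNA-Ctrl_E1 and 31648 in shRNA-Ctrl_E0. With overexpression 1 rose and 6 fell per the authors' deposited table (median -0.35), with sums of 22527 in cFos_OE and 25533 in EYFP_OE. The part of this shift in the values of Cx3cl1 and of Cxcl12 was not tested.

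Astrocyte markers rose for 5 and fell for 2 of 10 with shRNA-cFos, rose for 2 and fell for 0 with shRNA-Ctrl, and rose for 3 and fell for 1 with overexpression, in the authors' deposited tables. Of 10 oligodendrocyte markers 0 rose in any table, while 2, 1 and 1 fell with shRNA-cFos, shRNA-Ctrl and overexpression in the authors' deposited tables. The share of oligodendrocyte markers called was below that of all genes in every comparison. The same held for astrocyte markers with shRNA-Ctrl and for endothelial markers with shRNA-cFos. The summed oligodendrocyte level with overexpression was 25622 in cFos_OE and 36669.8 in EYFP_OE, estimated from the authors' deposited table. Endothelial markers, from cells that make Cxcl12, rose for 1 of 10 with shRNA-cFos and 4 of 10 with shRNA-Ctrl, with 0 lower, in the authors' deposited tables. With overexpression 0 rose and 3 fell per the authors' deposited table, with sums of 2892 in cFos_OE and 3428 in EYFP_OE. The part of these cells in the lower Cxcl12 was not tested, either with overexpression or with shRNA-Ctrl, where the called endothelial markers were higher.

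Precision differed greatly among the genes. The SE of Cxcl10 was 2.15 times the median SE of the 500 tested genes nearest in mean count with shRNA-cFos, and 2.60 times with shRNA-Ctrl, by calculation from the authors' deposited tables. Of those neighbours, 99.8% had a smaller SE in either table, by calculation from the authors' deposited tables. The SEs of Cxcl10, 0.263 and 0.293, lay at the limit set by the shrinkage. The largest SEs of any gene there were 0.264 with shRNA-cFos and 0.293 with shRNA-Ctrl, in the authors' deposited tables. The ratios of Cxcl10 could therefore hardly have been higher. For Cx3cl1, Cxcl12, Csf1 and Il33 in the hairpin tables the same ratio lay between 0.905 and 1.08, by calculation from the authors' deposited tables. With overexpression Cxcl12 had a ratio of 1.31 and Il33 of 1.42, computed from the authors' deposited table.

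Some reads may come from overlapping genes, since the sources used here do not give the strand setting of the counting. In the mouse annotation GENCODE M21, Art3 overlaps Cxcl10, Gm17268 overlaps Ccl2 and Il1bos overlaps Il1b, each on the opposite strand. Art3 had means of 26.2, 34.5 and 22.3 in the authors' deposited tables for shRNA-cFos, shRNA-Ctrl and overexpression. Its log2 fold changes there were 0.19 ± 0.25, 0.12 ± 0.24 and 0.14 ± 0.20, from the authors' deposited tables, and none passed.

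The receptors that read these signals were measured next, 14 in all. For this and the following gene lists, the shares of all tested genes called were 28.1% with shRNA-cFos, 33.0% with shRNA-Ctrl and 13% with overexpression, and 23.8% for the difference between the hairpins, from the authors' deposited tables. With shRNA-cFos, 1 of 10 tested receptors rose and 1 fell per the authors' deposited table, with a median log2 fold change of -0.09 beside -0.0031 for all genes. Ackr3, the scavenging receptor of Cxcl12, rose (0.45 ± 0.14) and Tnfrsf1a, the main Tnf receptor, fell (-0.52 ± 0.14) in the authors' deposited table. With shRNA-Ctrl, 5 of 14 rose and 1 fell per the authors' deposited table, at a median of 0.31 beside 0.0071. Among those that rose were Tnfrsf1a (0.75 ± 0.17), the Cx3cl1 receptor Cx3cr1 (0.25 ± 0.09), the Csf1 receptor Csf1r (0.24 ± 0.08) and Tnfrsf1b (0.57 ± 0.21), in the authors' deposited table. Il1r1, the signalling receptor of Il1b, fell by 1.22 ± 0.16 in the authors' deposited table (adjusted p = 3.2e-12).

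With overexpression 7 of 14 receptors rose and 1 fell per the authors' deposited table, at a median of 0.30 beside -0.0067 for all genes, and 5 of the 10 with a mean of at least 20 rose. Il1r1 rose (0.46 ± 0.11), as did Tnfrsf1a (0.61 ± 0.14), Tnfrsf1b (0.58 ± 0.17) and the Ccl2 receptor Ccr2 (0.67 ± 0.20), in the authors' deposited table. Il1rap, the shared partner of the Il1b and Il33 receptors, fell (-0.32 ± 0.09) in the authors' deposited table. The Cxcl12 receptor Cxcr4 did not pass in any of the 3, at -0.16, 0.41 and 0.29 in the authors' deposited tables for shRNA-cFos, shRNA-Ctrl and overexpression. Receptors of Cxcl10 (Cxcr3) and Il33 (Il1rl1) had means under 20 in each of the authors' deposited tables. The responses differed between the hairpins for 4 of 10 receptors, among them lower with shRNA-cFos for Tnfrsf1a (-1.27 ± 0.22) and Tnfrsf1b (-1.03 ± 0.29) and higher for Il1r1 (0.90 ± 0.24), by calculation from the authors' deposited tables.

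Other chemokines numbered 20, and their share called was near that of all genes with shRNA-cFos, with shRNA-Ctrl and for the difference between the hairpins. With shRNA-cFos 0 of 13 rose and 3 fell per the authors' deposited table, namely the monocyte attractant Ccl12 (-1.11 ± 0.26), the neutrophil attractant Cxcl5 (-0.82 ± 0.23) and Cxcl16 (-0.56 ± 0.22). With shRNA-Ctrl 3 of 15 rose and 2 fell per the authors' deposited table, with Cxcl16 (0.85 ± 0.25) and the T cell attractant Ccl5 (0.82 ± 0.29) higher and Cxcl5 (-1.11 ± 0.27) lower. The others, Cxcl1 and Pf4, had means under 20. With overexpression 3 of 13 rose and 1 fell per the authors' deposited table, with Cxcl16 (0.79 ± 0.20) and Ccl5 (0.69 ± 0.20) higher, Cxcl14 (-0.36 ± 0.08) lower and Ccl12 on a mean under 20. Medians were -0.07, 0.14 and 0.07 for shRNA-cFos, shRNA-Ctrl and overexpression, from the authors' deposited tables. Responses differed between the hairpins for 4 of 13, beside 23.8% of all genes, and these were lower with shRNA-cFos, beside 11.0% of all genes, among them Ccl12 (-1.65 ± 0.38) and Cxcl16 (-1.40 ± 0.33), by calculation from the authors' deposited tables.

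Other cytokines numbered 24, and their share called was not above that of all genes with shRNA-cFos, with shRNA-Ctrl or with overexpression. Lif had 0.19 ± 0.20 (adjusted p = 0.53) with shRNA-cFos, per the authors' deposited table. This cytokine of the Il6 family rose by 1.86 ± 0.21 (adjusted p = 1.5e-17) with shRNA-Ctrl, per the authors' deposited table. The difference of -1.68 ± 0.29 passed (adjusted p = 3.2e-07), by calculation from the authors' deposited tables. With shRNA-cFos 2 of 12 rose and 1 fell per the authors' deposited table, among them Il16 (0.41 ± 0.09) and the death ligand gene Tnfsf10 (-1.05 ± 0.25). With shRNA-Ctrl 3 of 15 rose and 1 fell, and with overexpression 0 of 15 rose and 1 fell, in the authors' deposited tables. Medians were 0.01, 0.03 and 0.06 there, from the authors' deposited tables. Responses differed for 4 of 12, 2 in each direction, beside 23.8% of all genes, with Il16 higher with shRNA-cFos (0.60 ± 0.13), by calculation from the authors' deposited tables. Il34, the second ligand of Csf1r, did not pass, at 0.27 ± 0.12 with shRNA-cFos, -0.08 ± 0.12 with shRNA-Ctrl and -0.23 ± 0.09 with overexpression in the authors' deposited tables.

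NF-kB is the factor family through which Tnf and Il1b act and by which Ccl2, Cxcl10 and Tnf are induced. With shRNA-cFos 3 of its 18 factors, feedback genes and targets rose and 5 fell per the authors' deposited table (median -0.09). The adhesion genes Vcam1 (-0.70 ± 0.12) and Icam1 (-0.95 ± 0.19) fell and the inhibitor-related Nfkbiz rose (0.69 ± 0.16), in the authors' deposited table. With shRNA-Ctrl 14 of 18 rose and 1 fell per the authors' deposited table (median 0.65), and the smallest adjusted p were those of the subunit genes Nfkb1 (0.83 ± 0.09), Rel (1.58 ± 0.21) and Rela (0.69 ± 0.10). With overexpression 3 rose and 0 fell per the authors' deposited table (median 0.21), namely Tnfaip2, Icam1 (0.58 ± 0.19) and Vcam1. In total this share was near the 13% of all genes called with overexpression, from the authors' deposited table. The responses of 11 of 18 were lower with shRNA-cFos and 0 higher, with Icam1 at -2.14 ± 0.34 and Bcl3 at -1.77 ± 0.36, by calculation from the authors' deposited tables.

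Genes that process or block cytokines were counted among 12. With shRNA-cFos 0 rose and 5 fell per the authors' deposited table (median -0.48), among them Casp1, which cleaves pro-Il1b (-0.66 ± 0.23), and Adam17, which sheds Tnf and Cx3cl1 (-0.51 ± 0.14). With shRNA-Ctrl 5 rose and 1 fell per the authors' deposited table (median 0.47), with Casp1 at 0.73 ± 0.22 and Adam17 at 0.34 ± 0.13. With overexpression 1 of 11 rose and 0 fell per the authors' deposited table (median 0.20), the protease gene Mmp2 (0.78 ± 0.17). This share was below the 13% of all genes called with overexpression, from the authors' deposited table. The responses of 6 of 12 were lower with shRNA-cFos and 0 higher, with Mmp2 at -1.60 ± 0.28 and the protease gene Ctss at -1.22 ± 0.23, by calculation from the authors' deposited tables.

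JAK-STAT genes carry cytokine signals to the nucleus, and 19 were tested. With shRNA-cFos 1 rose and 5 fell per the authors' deposited table (median -0.03), in total a share near the 28.1% of all genes called. Among those that fell were the oncostatin receptor gene Osmr (-0.66 ± 0.14) and Stat2 (-0.53 ± 0.12), in the authors' deposited table. With shRNA-Ctrl 10 rose and 0 fell per the authors' deposited table (median 0.35), including Stat3 (0.97 ± 0.12), Osmr (1.05 ± 0.18) and the feedback inhibitor Socs3 (1.33 ± 0.27). With overexpression 6 rose and 0 fell per the authors' deposited table (median 0.22), including Jak1 (0.59 ± 0.07) and Osmr (0.82 ± 0.18). The responses of 9 of 19 were lower with shRNA-cFos and 0 higher, with Osmr at -1.71 ± 0.22 and Socs3 at -1.85 ± 0.33, by calculation from the authors' deposited tables.

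**Figure D5:**
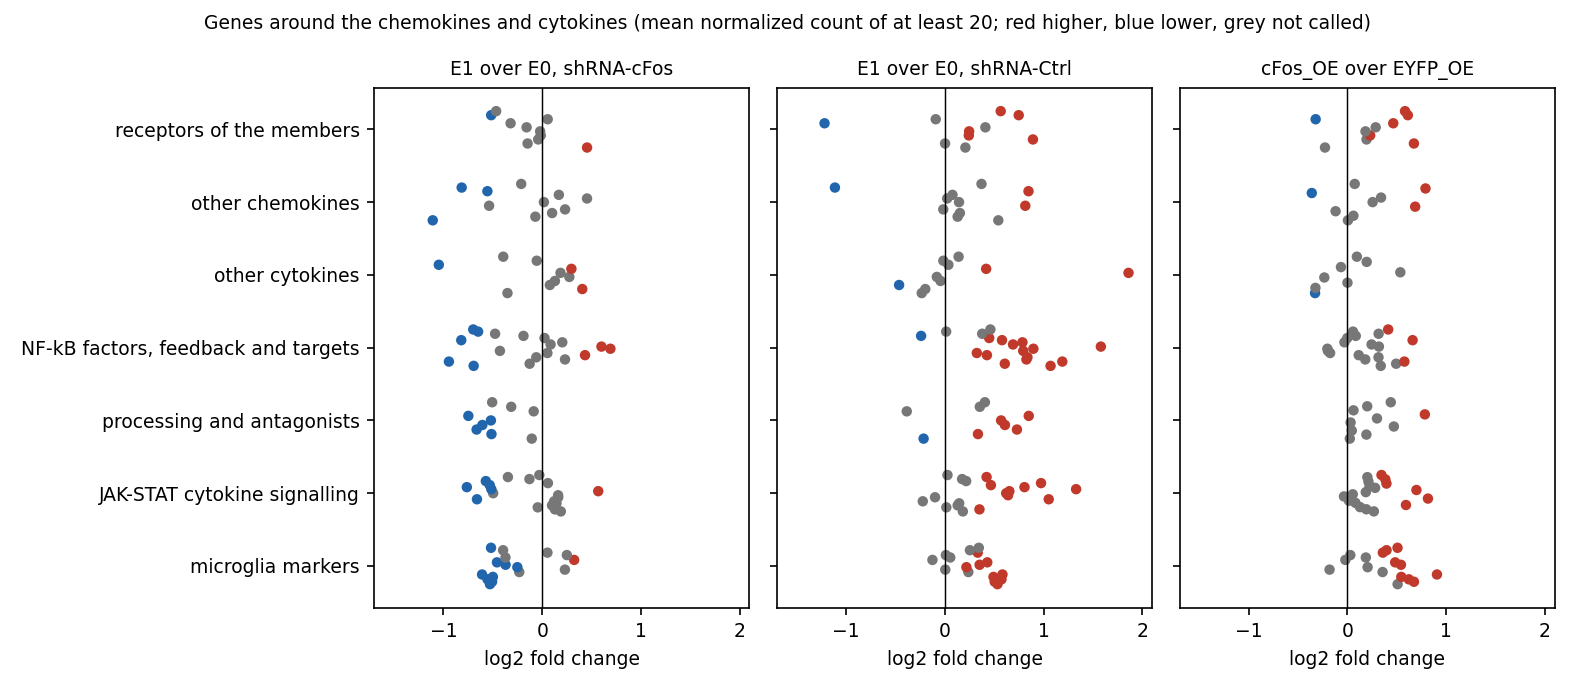
Log2 fold change of each tested gene with a mean normalized count of at least 20, by gene list and comparison, with red for higher, blue for lower and grey for not called. Most called genes of the NF-kB, processing and JAK-STAT lists lie right of 0 with shRNA-Ctrl, and the microglial markers lie mostly left of 0 with shRNA-cFos and right of 0 in the other comparisons.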

How the data were processed

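RNA-seq libraries were grouped by their sample titles into 6 groups of 3. The submitters' processing notes name TopHat2, DESeq2 and the build mm9. The sources used here do not give the counting tool, annotation or strand setting. Per the file headers, each deposited row holds a mean normalized count, a signal in counts after DESeq2's size-factor scaling, and the authors' log2 fold change with its standard error, in log2 units. The deposited Wald score and p-values, raw and adjusted, come from the authors' DESeq2 fit, per the file headers. The tables hold 0 columns of values per library, so no fit was made here, depth is unknown and precision is that of the authors' standard errors.

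The genes and lists were chosen with earlier results of these data known. A call needed an adjusted p under 0.05 in the authors' table. A mean under 20 was taken as too low to judge, and a gene without an adjusted p was not judged either. The difference of the E1 responses was set against its own standard error, the 2 tables' errors added in quadrature, in a 2-sided normal test adjusted by Benjamini-Hochberg over 14386 genes (Python 3.11.15, scipy 1.17.1). This step was tested on simulated data. The deposited fold changes are shrunken toward 0, with SEs of at most 0.26, 0.29 and 0.20 in the tables for shRNA-cFos, shRNA-Ctrl and overexpression. A normal prior centred on 0 gives such limits when its SD is 0.53, 0.59 and 0.41. Removing the prior has 2 solutions, of which the one with more information was used, and leaves each Wald score as it was. Levels assume that each mean covers the 3 libraries of both groups.

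All 10 genes and Fos are named, and of each of 12 other lists up to 4 tested genes with the smallest adjusted p. Genes named outside that rule, such as Cxcr4, Cxcr3, Il1rl1, Il34 and the overlapping genes, were chosen after their values were seen. The values of 1 receptor gene are not reported here. Left out were 27 gene names that had turned into dates in the deposited overexpression data. Alternatives were a threshold of 0.01, no filter on low means, a fold minimum of 1.5, means of at least 20 or 50, and the prior removed.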

Additional observations from a re-analysis of the deposited data

Results flagged for a closer look

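Results are given here because the response to activation, the log2 fold change at E1, differed between mice with shRNA-cFos and mice with shRNA-Ctrl, by a test of the difference itself by calculation from the authors' deposited tables. Values are shRNA-cFos minus shRNA-Ctrl, from the shrunken fold changes as deposited. Among the 10 chemokines and cytokines these were Cxcl10 (-1.55), Csf1 (-0.57) and Cx3cl1 (0.52), by calculation from the authors' deposited tables. Among their receptors Tnfrsf1a (-1.27) and Il1r1 (0.90) had the smallest adjusted p, by calculation from the authors' deposited tables. Among other chemokines and cytokines Ccl12 (-1.65), Cxcl16 (-1.40), Lif (-1.68) and Il16 (0.60) did, by calculation from the authors' deposited tables. In the signalling and processing lists Icam1 (-2.14), Bcl3 (-1.77), Mmp2 (-1.60), Ctss (-1.22), Osmr (-1.71) and Socs3 (-1.85) did, by calculation from the authors' deposited tables. The difference may lie at E0, at E1 or at both, which was not tested because the tables were normalized separately.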

How the results depend on the processing

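No paired analysis was possible because the tables hold no values per library, and for the same reason no replicate could be left out. With a fold minimum of 1.5, the 4 genes called with shRNA-Ctrl became 1 (Cxcl10), the 3 with overexpression became 1 (Cxcl12), and the 3 differences between the hairpins became 1 (Cxcl10), from the authors' deposited tables. The 3 genes called with overexpression also became 1 at an adjusted p of 0.01, with means of at least 20 and with means of at least 50, each time Cxcl12. The 2 genes called with shRNA-cFos remained under every alternative run. Without the filter on low means Ccl2 was lost with overexpression (adjusted p = 0.054) and the difference of Il1b, on a mean under 20, passed (adjusted p = 0.040), by calculation from the authors' deposited tables. At 0.01 the rise of Il33 with shRNA-Ctrl was lost. With the prior removed the 3 differences held. Removing the prior cannot change the direction of a log2 fold change in a single comparison, so it is no check of direction. The solution of the prior with less information was added after seeing the data. For the other lists, counts moved by over 1.5 times in 22 of 48 cases at 0.01 and 26 of 48 with the fold minimum, since both remove genes by construction. They moved in 3 of 48 without the filter, 2 and 6 of 48 with means of at least 20 and 50, and 0 of 12 with the prior removed.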

Other observations

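Markers of blood leukocytes, which carry receptors for Ccl2, Ccl3 and Cxcl10, were sparse. Of 13 in the tables, 10 had a mean under 20 with shRNA-cFos and 11 with shRNA-Ctrl and with overexpression, from the authors' deposited tables. With shRNA-Ctrl, beside 33.0% of all genes called, 5 of 11 tested markers passed higher and 0 lower per the authors' deposited table. Among them were the neutrophil genes S100a8 (1.13 ± 0.28) and S100a9 (1.24 ± 0.28), on means of 6.54 and 9.10 in the authors' deposited table, too low to judge. Only 2 of the tested markers had a mean of at least 20 with shRNA-Ctrl, and 1 of these passed higher, in the authors' deposited table. With shRNA-cFos 0 of 4 rose and 1 fell, beside 28.1% of all genes called, in the authors' deposited table. With overexpression 0 of 9 rose or fell, beside 13% of all genes called, in the authors' deposited table. The myeloid gene Lyz2 had -0.65 ± 0.26 with shRNA-cFos and 0.42 ± 0.29 with shRNA-Ctrl (adjusted p = 0.046 and 0.28) in the authors' deposited tables, and the difference passed (-1.07 ± 0.39, adjusted p = 0.031).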
